A study of Xenopus tropicalis with 18 samples.

Results

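Thyroid hormone receptor (TR) binding with T3 that was not reproducible in the TRαKO intestine was described over 265 of the 9867 counted regions. A region was taken when a peak overlapped it in at least 2 of the 3 libraries of T3-treated TRβKO or T3-treated wild type (WT), and in fewer than 2 of the 3 libraries of T3-treated TRαKO. The regions were thus chosen by the peak calls of the T3-treated libraries. Every level in a T3-treated library is given as a description of them, and only comparisons among the untreated libraries were read as tests.

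The data are ChIP-seq libraries made with a TR antibody from intestine of stage 54 tadpoles of Xenopus tropicalis. The groups were TRαKO, TRβKO and WT tadpoles given 10 nM T3 for 18 h, and untreated TRαKO, TRβKO and WT tadpoles, with 3 libraries described as biological replicates in each of the 6 groups. The sample labels write TRαKO where the series title writes TRαLKO, and neither gives the allele, the number of founders or whether animals were pooled. No input or mock library was used here, and the receptor forms that the antibody recognises were not given in the sources used here. The tissue is whole intestine, in which fewer cells bound by a receptor and less receptor per cell cannot be told apart.

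TRα and TRβ are nuclear receptors that bind DNA together with retinoid X receptors at thyroid hormone response elements. Without hormone they recruit corepressor complexes that deacetylate histones, and T3 exchanges these for coactivators. In frog tadpoles TRα is present in most tissues before metamorphosis, whereas the TRβ gene is itself induced by hormone. T3 drives the remodelling of the tadpole intestine, in which most of the larval epithelium dies and an adult epithelium forms from stem cells.

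Library depth differed between groups and is given here in M (1000000) tags left after the duplicate filter of the peak caller. It was 6.03 to 8.02 M in TRαKO, 2.76 to 3.28 M in TRβKO and 2.29 to 2.53 M in WT with T3, and 7.49 to 9.28 M in TRαKO, 5.22 to 5.8 M in TRβKO and 12.4 to 17.1 M in WT without it. The T3-treated TRαKO libraries, in which these peaks were missing or not repeated, were thus deeper than the other T3-treated libraries. They also had more peaks in all, at 3039 to 6565 per library, against 666 to 867 in TRβKO and 806 to 959 in WT. Reproducible T3 peaks were found only in TRαKO at 1602 counted regions. Duplicate tags with T3 were 7.57 to 10.9% in TRαKO, 15.7 to 16.2% in TRβKO and 21.4 to 22.4% in WT. In untreated WT they were 2.2 to 2.97%. Fragment length was 295 to 298 bp in the T3-treated libraries and 255 to 283 bp in untreated WT. The part of these differences in the T3 results was not tested. Levels below are read counts scaled to these tags, in reads per 1000000 tags (CPM), at single regions, and are not scaled by length. Reads over thra report receptor binding there and say nothing of its deletion, so no check of the knockout labels by their own genes was possible.

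With T3 the peaks were found in 50, 33 and 26 of the 265 regions in the TRαKO libraries, in 139, 156 and 133 in the TRβKO libraries, and in 129, 138 and 139 in the WT libraries. No TRαKO library had a peak in 156 of the regions, and exactly 1 did in 109. The rule was met in both TRβKO and WT by 66 regions, in TRβKO alone by 106 and in WT alone by 93. Peaks in all 3 TRβKO and all 3 WT libraries were present in 7 regions. Nearly all of these regions therefore also lacked a peak in at least 1 TRβKO or WT library. The authors' −log10 q of the peaks had a median of 5.19 over the 109 TRαKO peaks, 6.4 over the TRβKO peaks and 5.53 over the WT peaks. The corresponding medians were 9.32, 11.3 and 11.0 in the 320 regions with reproducible T3 peaks in all 3 genotypes.

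The TRαKO libraries still carried reads at these regions. The median level over the 265 was 2.99, 2.82 and 2.99 CPM in the 3 TRαKO libraries with T3, 8.31, 7.93 and 7.98 CPM in those of TRβKO and 7.63, 7.91 and 8.31 CPM in those of WT. In untreated libraries the medians were 1.16, 1.08 and 1.07 CPM in TRαKO, 1.1, 1.21 and 1.15 CPM in TRβKO and 0.804, 0.818 and 0.809 CPM in WT. The T3-treated TRαKO medians lay between the untreated medians and the T3-treated medians of the other genotypes, and no library of one of these 3 sets overlapped those of another. Because the TRαKO libraries were deeper, the median number of reads behind a group level with T3 was similar, at 62 in TRαKO, 74 in TRβKO and 59 in WT.

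**Figure D1:**
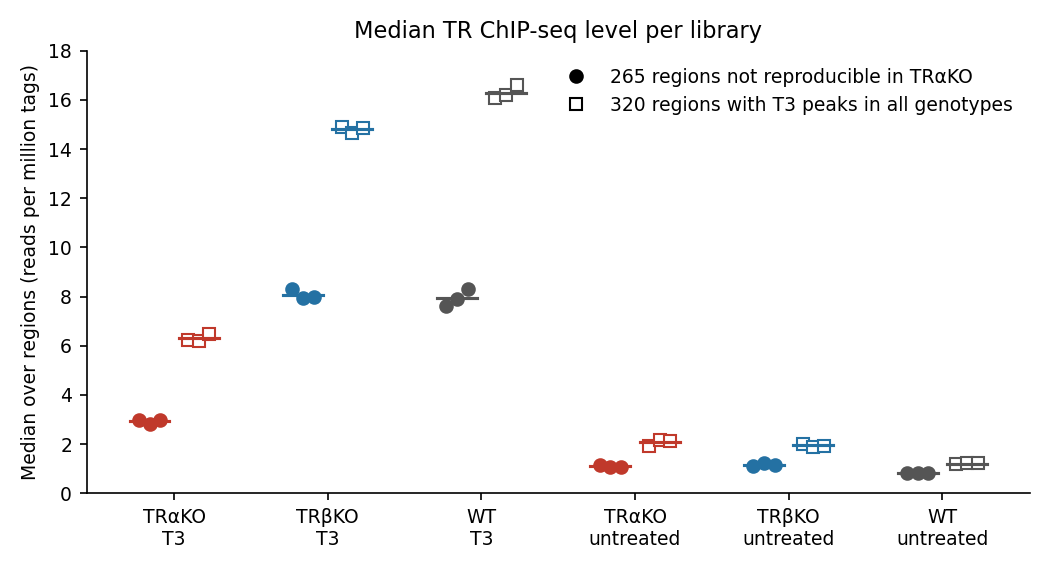
Median level per library, in reads per M tags (y axis), for the 6 groups (x axis). Filled circles are the 265 regions not reproducible in TRαKO and open squares the 320 regions with T3 peaks in all genotypes, each point is 1 library, and lines are means of 3 libraries. With T3 the TRαKO circles lie at 2.82 to 2.99 CPM, below the TRβKO and WT circles at 7.63 to 8.31 CPM and above all untreated circles, and the squares are in the same order at higher levels.

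The regions with T3 peaks in all genotypes showed the same order. Their group medians with T3 were 6.25 CPM in TRαKO, 14.9 CPM in TRβKO and 16.2 CPM in WT. Per kb of region, the median level with T3 in the regions not reproducible in TRαKO was 6.49 CPM in TRαKO, 18.4 CPM in TRβKO and 17.3 CPM in WT, against 11.2, 26.2 and 28.6 CPM in the regions with peaks in all genotypes. The 1602 regions with reproducible T3 peaks only in TRαKO had TRαKO medians with T3 of 2.75 CPM and 6.4 CPM per kb. In TRβKO and WT with T3 the 1602 had medians of 1.73 and 1.93 CPM. The TRαKO medians of the 265 were similar to those of the 1602, at 2.94 CPM and 6.49 CPM per kb. The TRαKO level was a median 36.1% of the WT level in the regions not reproducible in TRαKO and 39.0% in those with peaks in all genotypes. Over all counted regions that median was 104%. The share differed by how a region met the rule, with a median of 30.3% in the regions found in WT alone, 46.1% in those found in TRβKO alone and 33.1% in those found in both. The TRαKO mean was under 25% of the WT mean at 41 of the 265 regions, against 7 of the 320 with peaks in all genotypes. It was over 50% of the WT mean at 51 of the 265, against 48 of the 320. Of these 51 regions, 44 were found in TRβKO alone. Peaks in these libraries chose the 265, the 320 and the 1602 regions, so these shares and levels carry no test.

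Around the threshold the TRαKO medians rose with the number of TRαKO libraries with a peak, and the full ranges overlapped. The 109 regions with a peak in 1 TRαKO library had group medians with T3 of 3.57 CPM in TRαKO, 8.57 CPM in TRβKO and 9.07 CPM in WT. The 145 regions just outside the rule, with a peak in 2 TRαKO libraries, had 4.6 CPM in TRαKO, 10.3 CPM in TRβKO and 11.4 CPM in WT. The lower to upper quartiles in TRαKO with T3 were 3.14 to 4.13 CPM in the 109 and 4.08 to 5.22 CPM in the 145. The full ranges there were 1.96 to 5.05 CPM and 2.27 to 8.33 CPM. The 156 regions with no TRαKO peak had a TRαKO median of 2.46 CPM.

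**Figure D2:**
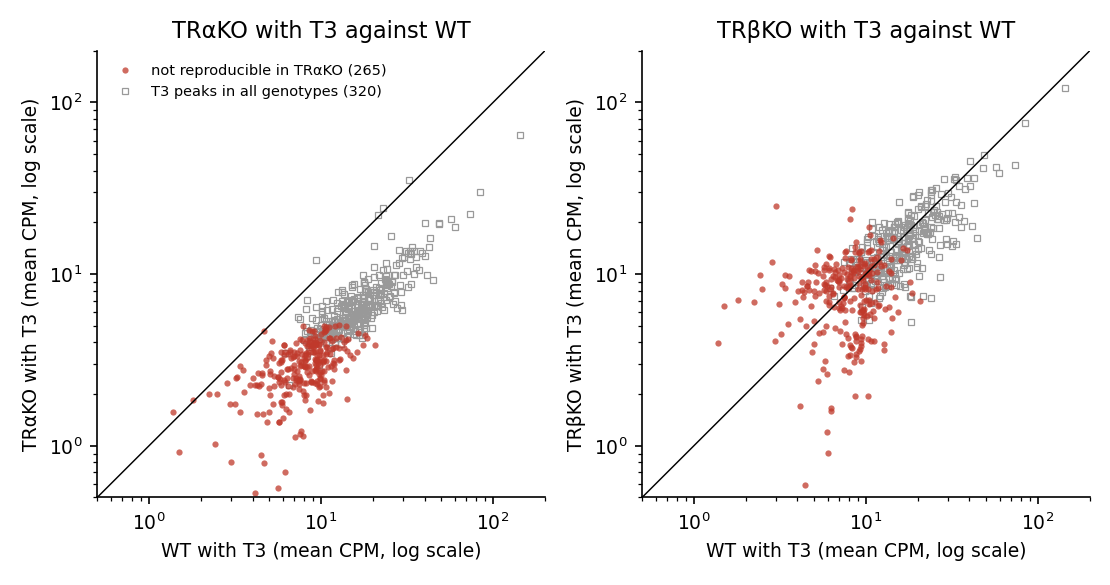
Mean level with T3 (CPM, log scale, n = 3 libraries) in TRαKO (left) and TRβKO (right) on the y axis against WT on the x axis, 1 point per region, with the line of equal levels. In TRαKO the mean of 262 of the 265 regions not reproducible in TRαKO (red circles) is below WT, and they continue the band of the 320 regions with T3 peaks in all genotypes (grey squares) towards lower levels. In TRβKO the red circles lie on both sides of the line.

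Read counts were fitted over all regions with edgeR's quasi-likelihood method, with Benjamini-Hochberg adjustment over the 9342 regions that passed the count filter. All 265 regions passed it. With T3 the mean level was lower in TRαKO than in TRβKO at 255 of the 265 and lower than in WT at 262. Over all 9342 tested regions the fitted level was higher in TRαKO than in TRβKO at 6415 and than in WT at 4833. All 3 TRαKO libraries lay below all 6 TRβKO and WT libraries at 166, where 6.63% of all tested regions had that order. At an adjusted p under 0.05 by edgeR, 185 were lower in TRαKO than in WT, where 7.3% of all tested regions were lower, and 184 were lower in TRαKO than in TRβKO, where 6.25% were. Both called 128 of them and neither called 24. None was called higher in TRαKO, where 1.08% of all tested regions were against WT and 4.13% against TRβKO. The median log2 difference was -1.45 against WT and -1.47 against TRβKO. The rule used these libraries, so the counts describe the selection.

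TRβKO and WT with T3 had similar median levels over the same regions. At an adjusted p under 0.05 by edgeR, 11 regions were higher and 18 lower in TRβKO than in WT. The shares over all tested regions were 0.578% higher and 3.65% lower. The median log2 difference was 0.03, where it was -0.30 over all tested regions. With TMM scaling the counts were 17 higher and 7 lower, so the balance of directions depended on the scaling. The shares above are for tags as library size and are no background for the TMM counts. Of the 11 higher ones 10 were found in TRβKO alone, and all 18 lower ones were found in WT alone, as the rule favours.

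In TRαKO too the level was higher with T3 at most of these regions. The group mean was higher with T3 than without it in TRαKO at 260 of the 265 regions. Over all 9342 tested regions the fitted T3 effect in TRαKO was positive at 7057. At 196 of the 265 the 3 treated libraries lay above the 3 untreated ones, where 26.3% of all tested regions did. At an adjusted p under 0.05 by edgeR, 126 were higher with T3 in TRαKO, where 8.6% of all tested regions were, 247 in TRβKO, where 9.49% were, and 256 in WT, where 10.2% were. None was called lower, where 0.0749% of all tested regions were in TRαKO, 2.27% in TRβKO and 1.08% in WT. The median log2 change with T3 was 1.31 in TRαKO, 2.78 in TRβKO and 3.24 in WT. The TRαKO count depended on scaling, with 40 called under TMM and 51 with DESeq2. The 8.6% above is for tags as library size and is no background for those counts. The median over all tested regions was 0.46 in TRαKO with tags as library size and 0.07 under TMM, and the median of the 265 was 0.92 under TMM. The absolute gain in CPM with T3 in TRαKO was a median 24.4% of the gain in WT, and in TRβKO it was 98.1%. In the regions with T3 peaks in all genotypes these medians were 28.6% and 85.3%. The rule used the T3-treated libraries, so these counts and gains describe the regions chosen and carry no test.

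**Figure D3:**
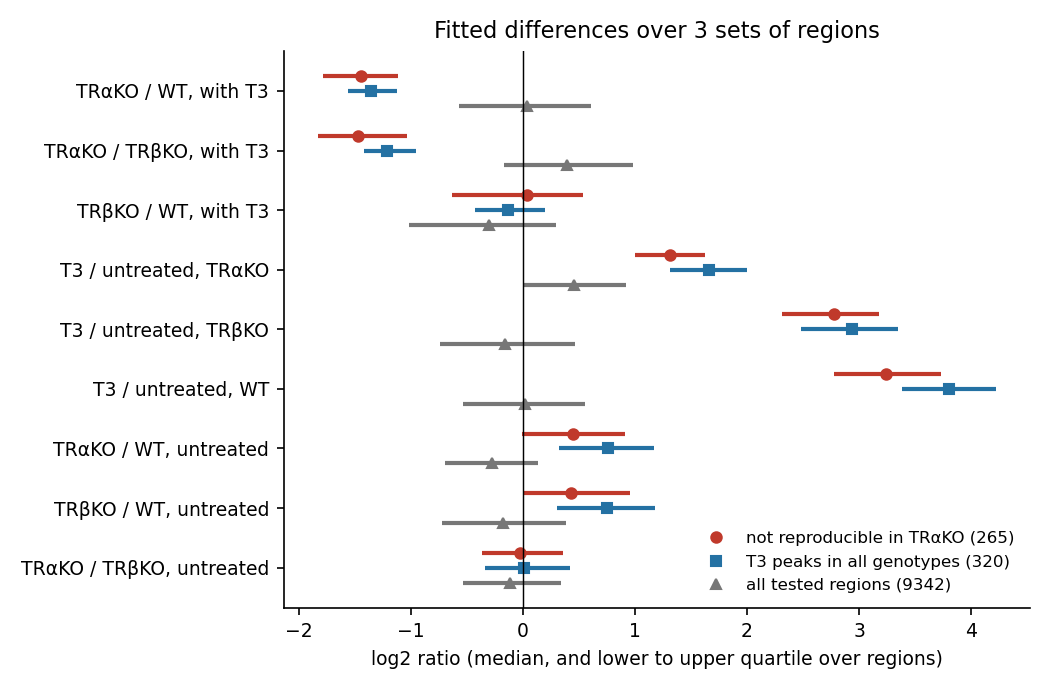
Fitted log2 ratio (x axis) in the 9 contrasts (y axis), as the median (symbol) and the lower to upper quartile over regions (line), for the regions not reproducible in TRαKO, the regions with T3 peaks in all genotypes and all tested regions. The T3 effect of the regions not reproducible in TRαKO has a median of 1.31 in TRαKO, 2.78 in TRβKO and 3.24 in WT, and in the untreated contrasts with WT their medians are 0.44 and 0.43 for TRαKO and TRβKO.

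Of the 265 regions, 165 overlapped a gene body, 54 lay within 10 kb of a gene and 46 had no gene that near. These shares of 62.3%, 20.4% and 17.4% were close to the 62.2%, 21.6% and 16.3% of the regions with T3 peaks in all genotypes, while over all counted regions 53.5% overlapped a body and 28.8% had no gene near. The median width was 455 bp, against 539 bp in the regions with peaks in all genotypes. The regions fell at 215 genes, of which 4 had 2 such regions each (lgr4, lpin1, fryl and LOC100493503). At 61 of the genes another region had been counted, and at 11 of them that region had T3 peaks in all genotypes. They included thra, rara, cdx1, max, nrep, nsmce2, sesn3, sgms1, LOC100489278 and LOC116411696. Coordinates are those of the deposited table, whose genome build is not given in the sources used here, and gene names come from the UCB_Xtro_10.0 annotation.

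Of 25 counted regions at nuclear receptor genes, 3 belonged to the regions not reproducible in TRαKO, and 9 had T3 peaks in all genotypes. Over all 9867 counted regions the numbers were 265 and 320, which is the background for every gene list below. The 3 were at thra, rara and hnf4b. By edgeR all 3 were higher with T3 in TRβKO and WT, and 2 of 3 in TRαKO. All 3 were lower in TRαKO than in the other genotypes with T3. Over all tested regions, 9.49%, 10.2% and 8.6% were higher with T3 in TRβKO, WT and TRαKO. With T3, 7.3% were lower in TRαKO than in WT and 6.25% than in TRβKO. The rule had used the T3-treated libraries of these contrasts.

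At thra, the gene of TRα, the region chr10:9147455-9147906 in the gene body had 5.61, 2.4 and 3.32 CPM in TRαKO with T3, 7.27, 14.6 and 9.43 CPM in TRβKO and 4.42, 8.7 and 14 CPM in WT. One TRαKO library overlapped the WT range and the other 2 lay below every TRβKO and WT library. In untreated libraries it had 0.514, 0.754 and 0.534 CPM in TRαKO, 1.28, 1.04 and 0.958 CPM in TRβKO and 0.585, 0.818 and 0.89 CPM in WT, below every T3-treated library of the same genotype. Its T3 effect in TRαKO, at log2 2.61 ± 0.47, lay above the upper quartile of 1.62 over the 265. Of the 3 other counted regions of thra, 2 had T3 peaks in all genotypes. The stronger, at chr10:9096138-9097271, averaged 19.7 ± 1.51 CPM in TRαKO, 41.7 ± 9.91 CPM in TRβKO and 48.2 ± 1.41 CPM in WT with T3 (SD, n = 3 each). The gene thus held regions of both kinds, and all of these means were lower in TRαKO.

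At rara, the gene of retinoic acid receptor alpha, the region chr10:8776770-8777299 had 4.74, 3.1 and 3.32 CPM in TRαKO with T3, 9.01, 12.8 and 9.43 CPM in TRβKO and 15.3, 12.6 and 12.7 CPM in WT. All 3 TRαKO libraries lay below the other 6. The gene also held a region with peaks in all genotypes, chr10:8790066-8790612, at 9.98 ± 0.465 CPM in TRαKO, 21.5 ± 3.93 CPM in TRβKO and 34.6 ± 3.64 CPM in WT (SD, n = 3 each). At hnf4b, a gene of the hepatocyte nuclear factor 4 family of gut and liver regulators, the region chr4:62053351-62053862 had 2.12, 2.4 and 3.65 CPM in TRαKO, 14.5, 8.23 and 7.26 CPM in TRβKO and 10.4, 12.3 and 8.31 CPM in WT with T3. No TRαKO library had a peak there, and the ranges did not overlap.

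Genes of receptor coregulators and chromatin enzymes held 6 of these regions among 42 counted, and 9 regions with peaks in all genotypes. They included tbl1x, sin3a, smarcd2, ncoa1 and tet2. With T3, edgeR called all 6 lower in TRαKO than in WT, where 7.3% of all tested regions were. It called 4 of 6 lower in TRαKO than in TRβKO, where 6.25% were, and 1 of 6 lower in TRβKO than in WT, where 3.65% were. In TRαKO 2 of 6 were called higher with T3, where 8.6% were. The rule had used the T3-treated libraries, so these counts describe the selection.

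TBL1X is part of the corepressor complex that unliganded receptors recruit. The region chr2:59186235-59186746 in tbl1x had 2.62, 3.67 and 3.98 CPM in TRαKO with T3, 5.54, 3.05 and 3.63 CPM in TRβKO and 11.2, 11.5 and 10.9 CPM in WT. Here the 2 knockouts overlapped and WT stood above both. The log2 difference of TRαKO from TRβKO at tbl1x was -0.25 ± 0.41.

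SIN3A is the scaffold of a histone deacetylase complex, and the region chr3:93383232-93383723 in its gene had 3.74, 4.66 and 2.32 CPM in TRαKO with T3, 11.4, 14.9 and 10.2 CPM in TRβKO and 11.2, 10.3 and 6.12 CPM in WT. NCOA1 (SRC-1) is a coactivator of liganded receptors, and chr5:152845332-152845760 in ncoa1 had 1.87, 1.98 and 2.99 CPM in TRαKO, 8.31, 8.54 and 8.35 CPM in TRβKO and 5.22, 7.51 and 8.31 CPM in WT. In both genes all TRαKO libraries lay below the other 6. SMARCD2 is a subunit of SWI/SNF chromatin remodellers, and the region chr10:15742922-15743334 near smarcd2 had 2.12, 1.83 and 2.16 CPM in TRαKO, 8.31, 2.44 and 5.81 CPM in TRβKO and 8.03, 11.9 and 13.6 CPM in WT. TET2 oxidises methylated cytosine, and chr1:72620285-72620793 near tet2 had 2.74, 4.37 and 4.48 CPM in TRαKO, 8.31, 7.32 and 6.89 CPM in TRβKO and 7.63, 8.7 and 11.8 CPM in WT. At tet2, which with thra made up the 2 regions among the 33 counted at direct T3 response genes, the TRαKO libraries lay below all others, and no TRαKO library had a peak. Of those 33, 18 had T3 peaks in all genotypes.

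Genes of differentiated gut epithelium held 4 of these regions among 15 counted, and 3 regions with peaks in all genotypes. They included cdx1, gata5 and slc2a2. CDX1 and GATA5 are transcription factors of the intestinal lineage, and slc2a2 encodes the glucose transporter GLUT2. By edgeR all 4 were lower in TRαKO than in WT with T3, where 7.3% of all tested regions were. Of the 4, 2 were lower in TRαKO than in TRβKO, where 6.25% were, and 2 were higher with T3 in TRαKO, where 8.6% were. These counts again describe the selection, which used the T3-treated libraries.

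The region chr3:21125770-21126317 near cdx1 had 4.11, 2.82 and 2.49 CPM in TRαKO with T3, 10.4, 10.7 and 7.26 CPM in TRβKO and 8.03, 7.12 and 13.1 CPM in WT. The region chr5:111664768-111665233 near slc2a2 had 2.74, 1.69 and 2.49 CPM in TRαKO, 13.9, 14.3 and 8.71 CPM in TRβKO and 13.7, 4.74 and 6.12 CPM in WT. TRαKO lay below the other libraries at both, with no TRαKO peak. At slc2a2 the TRαKO level with T3 overlapped its untreated 1.93, 1.72 and 1.6 CPM, with a log2 T3 effect of 0.40 ± 0.42, against 2.71 ± 0.40 in TRβKO and 3.20 ± 0.42 in WT.

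The gata5 region was lower in both knockouts. The region chr10:4922621-4923003, which also overlaps LOC116408023, had 2.49, 3.53 and 4.65 CPM in TRαKO with T3, 5.2, 7.01 and 4.35 CPM in TRβKO and 12.4, 15.4 and 14.4 CPM in WT. All WT libraries stood above both knockouts there, and the region met the rule in WT alone. Another counted region in gata5, chr10:4927022-4927501, had peaks in 3 TRαKO, 0 TRβKO and 2 WT libraries with T3. It averaged 5.08 CPM in TRαKO, 5.22 CPM in TRβKO and 11.4 CPM in WT.

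The stem cell and progenitor list and the WNT and R-spondin list held the same 2 regions, both in lgr4, which encodes an R-spondin receptor that raises WNT signalling. They were 2 of 6 counted regions of the stem cell list and 2 of 26 of the WNT list. The region chr4:21092281-21092855 had 3.99, 4.23 and 5.97 CPM in TRαKO with T3, 13.5, 7.62 and 7.26 CPM in TRβKO and 10.0, 6.72 and 8.75 CPM in WT. The region chr4:21104614-21105059 had 2.0, 2.12 and 3.15 CPM in TRαKO, 4.5, 7.62 and 3.63 CPM in TRβKO and 6.42, 8.7 and 7.44 CPM in WT. The TRαKO libraries were below the others at both. Another counted region of the gene, chr4:21091727-21092148, flanks the region chr4:21092281-21092855. It had peaks in 2 TRαKO, 1 TRβKO and 2 WT libraries with T3. This neighbour averaged 4.0 CPM in TRαKO, 4.96 CPM in TRβKO and 8.95 CPM in WT. No region of the 14 counted at hedgehog and BMP genes, of the 9 at genes of mesenchyme, muscle and other cell types or of the 1 at Notch genes was among the 265.

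The apoptosis and stress list held 2 of these regions among 13 counted. At fas, which encodes a death receptor, chr7:12700832-12701212 had 4.36, 2.54 and 1.99 CPM in TRαKO with T3, 8.66, 10.7 and 5.81 CPM in TRβKO and 5.22, 7.12 and 10.5 CPM in WT. At gadd45a, a stress-induced regulator of growth arrest, chr4:83503263-83503618 had 2.49, 1.98 and 2.16 CPM in TRαKO, 11.4, 10.4 and 9.8 CPM in TRβKO and 4.01, 8.7 and 7.87 CPM in WT. TRαKO lay below the others at both. The log2 T3 effect in TRαKO was 1.66 ± 0.46 at fas and 0.46 ± 0.42 at gadd45a. By edgeR 1 of the 2 was called higher with T3 in TRαKO, where 8.6% of all tested regions were.

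MAX, the partner of MYC, was the single member of the cell cycle list, of 9 counted. Its region chr8:119941691-119942109 had 3.49, 2.4 and 3.65 CPM in TRαKO with T3, 6.58, 8.54 and 10.9 CPM in TRβKO and 11.2, 4.74 and 8.31 CPM in WT. The basement membrane proteoglycan gene hspg2 was the single member of the matrix list, of 13 counted, and chr7:132326249-132326699 near it had 2.37, 2.4 and 2.49 CPM in TRαKO, 7.27, 8.84 and 4.35 CPM in TRβKO and 6.42, 10.3 and 5.25 CPM in WT. The TRαKO libraries again lay below the other 6 at both.

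The list of insulin, energy and autophagy genes held 4 of these regions among 22 counted, and 4 with peaks in all genotypes. FOXO1 and FOXO3 are transcription factors held out of the nucleus by insulin signalling. The region chr2:150356892-150357380 in foxo1 had 2.49, 4.8 and 3.15 CPM in TRαKO with T3, 8.31, 2.44 and 8.35 CPM in TRβKO and 6.02, 7.51 and 8.31 CPM in WT, with 1 TRβKO library below all 3 of TRαKO. The region chr5:78305588-78306109 in foxo3 had 3.37, 1.83 and 2.82 CPM in TRαKO, 7.97, 12.5 and 14.5 CPM in TRβKO and 11.6, 11.1 and 7.0 CPM in WT, with no overlap between TRαKO and the others.

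At gys1, which encodes a glycogen synthase, chr7:113345126-113345561 had 2.74, 1.41 and 2.49 CPM in TRαKO with T3, 10.0, 7.01 and 6.53 CPM in TRβKO and 5.62, 3.16 and 4.37 CPM in WT, and it met the rule in TRβKO alone. At ppargc1b, a coactivator gene of mitochondrial metabolism, chr3:43988925-43989268 had 3.87, 2.26 and 2.66 CPM in TRαKO, 8.31, 5.79 and 7.62 CPM in TRβKO and 7.63, 8.3 and 6.56 CPM in WT. TRαKO was the lowest group at both. The clock gene per3 was the single member of the clock list, of 14 counted, and chr7:101212419-101213081 near it had 2.12, 3.95 and 2.99 CPM in TRαKO, 14.5, 7.93 and 9.07 CPM in TRβKO and 4.82, 3.16 and 9.19 CPM in WT. TRαKO and WT overlapped at per3, and TRβKO stood above both apart from 1 WT library.

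**Figure D4:**
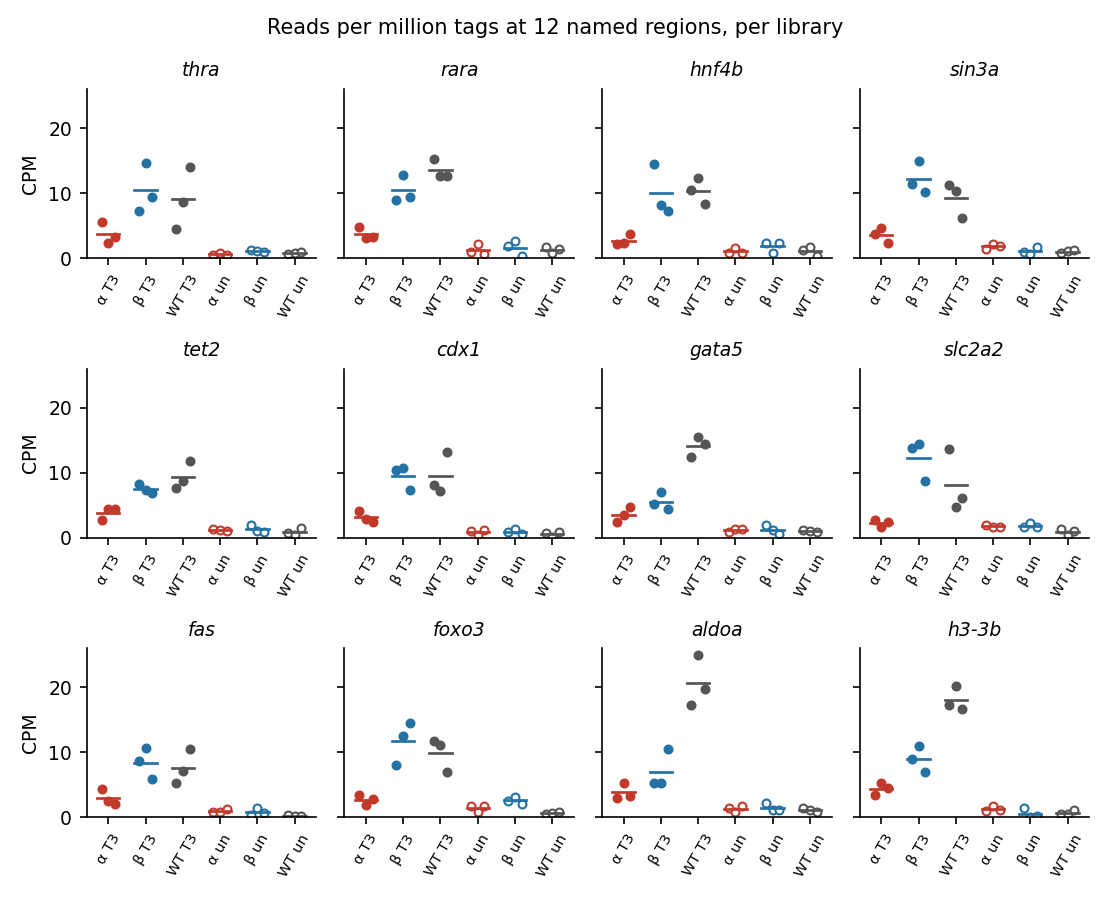
Reads per M tags (CPM, y axis) in each library at 12 of the regions not reproducible in TRαKO, in TRαKO, TRβKO and WT with T3 (α T3, β T3 and WT T3, filled) and untreated (α un, β un and WT un, open). Points are libraries and lines are means of 3. In every panel the mean of TRαKO with T3 is the lowest of the 3 T3-treated groups and lies above the untreated means, and gata5 shows both knockouts below WT.

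The highest levels among the 66 regions found in both TRβKO and WT stood at sel1l3, rara, nfatc2, h3-3b, apoo, abcc12, sesn3, usp47, bach2, wwtr1, ptp4a3 and adcy5, in genes with a symbol. At h3-3b, a gene of the replacement histone H3.3, chr10:44807559-44808045 had 3.49, 5.22 and 4.48 CPM in TRαKO with T3, 9.01, 11 and 6.89 CPM in TRβKO and 17.3, 20.2 and 16.6 CPM in WT. The 3 genotypes did not overlap there, and TRβKO was intermediate. At nfatc2, a calcium-regulated transcription factor, chr10:35369290-35369787 had 4.36, 3.53 and 2.66 CPM in TRαKO, 14.5, 12.2 and 9.43 CPM in TRβKO and 18.5, 12.3 and 17.5 CPM in WT. At wwtr1, which encodes the Hippo pathway coactivator TAZ, chr5:122366617-122367290 had 2.0, 2.82 and 2.32 CPM in TRαKO, 10.4, 8.84 and 7.62 CPM in TRβKO and 16.9, 8.3 and 9.62 CPM in WT. TRαKO was apart from the other libraries at nfatc2 and wwtr1.

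Others of these 12 encode proteins of signalling and of mitochondria. At sesn3, which encodes a sestrin that restrains mTORC1, chr2:164597462-164597950 had 3.99, 2.68 and 2.82 CPM in TRαKO with T3, 10.4, 11.6 and 12 CPM in TRβKO and 11.6, 14.2 and 12.2 CPM in WT. At apoo, whose product belongs to the mitochondrial cristae complex, chr2:43116058-43116553 had 3.99, 6.77 and 4.15 CPM in TRαKO, 13.9, 15.2 and 18.5 CPM in TRβKO and 16.1, 10.3 and 10.1 CPM in WT. At adcy5, an adenylyl cyclase gene, chr9:88542438-88542924 had 3.24, 2.96 and 3.98 CPM in TRαKO, 4.16, 8.23 and 9.8 CPM in TRβKO and 18.5, 10.7 and 14.9 CPM in WT. The TRαKO libraries were below all others in these 3. Another counted region near apoo, chr2:43114624-43115062, had peaks in 2 TRαKO, 2 TRβKO and 0 WT libraries with T3. It averaged 5.28 CPM in TRαKO, 9.96 CPM in TRβKO and 9.51 CPM in WT. At sel1l3 the means with T3 were 4.11 ± 0.849 CPM in TRαKO, 12.3 ± 1.01 CPM in TRβKO and 14 ± 3.49 CPM in WT (SD, n = 3 each). At usp47, a deubiquitinase gene, they were 3.14 ± 1.46, 6.6 ± 1.58 and 12 ± 1.98 CPM in TRαKO, TRβKO and WT, and at the phosphatase gene ptp4a3 4.27 ± 0.776, 11.2 ± 0.754 and 12.3 ± 0.846 CPM. The TRαKO mean was below the WT mean at each of the 3, as the rule favours.

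Among the 93 regions found in WT alone, the highest levels in WT stood at aldoa, gtdc1, nrep, slc16a9 and gata5. At aldoa, a glycolytic aldolase gene, chr9:2467068-2467594 had 2.99, 5.22 and 3.32 CPM in TRαKO with T3, 5.2, 5.18 and 10.5 CPM in TRβKO and 17.3, 24.9 and 19.7 CPM in WT, the highest WT mean of all 265. One TRαKO library was in the TRβKO range there, and WT stood above both knockouts. At slc16a9, of the monocarboxylate transporter family, chr7:16349056-16349611 had 2.49, 4.23 and 2.99 CPM in TRαKO, 4.5, 7.01 and 6.53 CPM in TRβKO and 17.3, 16.6 and 12.2 CPM in WT. At gtdc1 the means were 4.25 ± 1.52 CPM in TRαKO, 7.81 ± 2.42 CPM in TRβKO and 18.5 ± 0.793 CPM in WT (SD, n = 3 each). Both knockouts were below WT in these regions. At nrep, chr1:173258600-173258965 had 2.99, 5.79 and 4.81 CPM in TRαKO, 15.9, 14 and 12.7 CPM in TRβKO and 22.9, 18.6 and 7.87 CPM in WT, and TRβKO lay within the WT range although it had no peak. This region flanks a stronger counted region, chr1:173259087-173259806, with peaks in all 3 libraries of every T3-treated group. That neighbour averaged 19.8 CPM in TRαKO, 49.6 CPM in TRβKO and 48.3 CPM in WT with T3.

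Among the 106 regions found in TRβKO alone, the highest levels in TRβKO stood at LOC116407329, phlpp2, lpp, LOC100493503 and itpr1. At phlpp2, a phosphatase gene that restrains Akt, chr4:59373592-59374099 had 4.61, 2.82 and 4.48 CPM in TRαKO with T3, 16.3, 19.8 and 26.5 CPM in TRβKO and 7.23, 7.91 and 9.19 CPM in WT. The 3 genotypes did not overlap. At lpp, a focal adhesion protein gene, chr5:103699145-103699627 had 4.11, 4.52 and 4.15 CPM in TRαKO, 14.5, 13.1 and 15.6 CPM in TRβKO and 7.63, 9.49 and 8.75 CPM in WT, in the same order and without overlap. At itpr1, the gene of an inositol trisphosphate receptor of intracellular calcium stores, chr4:130124834-130125304 had 4.49, 4.23 and 3.48 CPM in TRαKO, 9.01, 11.9 and 20.3 CPM in TRβKO and 4.42, 1.98 and 9.19 CPM in WT. TRαKO and WT overlapped there, so the region was high in TRβKO and not low in TRαKO alone.

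Of the regions named in the preceding 3 groups, 5 had no peak in any TRαKO library with T3. Their means in TRαKO with T3 were 4.53 ± 1.42 CPM at nrep, 3.98 ± 0.551 CPM at LOC100493503, 3.78 ± 0.512 CPM at bach2, 2.82 ± 0.571 CPM at abcc12 and 0.80 ± 0.453 CPM at LOC116407329 (SD, n = 3 each). At the first 4 of them the untreated TRαKO means were 1.14 ± 0.181, 2.53 ± 1.61, 1.64 ± 0.441 and 1.43 ± 0.447 CPM. The TRαKO means with T3 were thus above those without it at these 4, though no peak was called. The nrep region flanks one with peaks in all 3 TRαKO libraries with T3, as given above. At bach2, a transcriptional repressor gene, chr5:85100278-85100792 had 3.49, 4.37 and 3.48 CPM in TRαKO with T3, 15.2, 16.2 and 14.9 CPM in TRβKO and 13.2, 15.8 and 7.44 CPM in WT. At abcc12, an ABC transporter gene, chr2:112820258-112820782 had 2.24, 3.39 and 2.82 CPM in TRαKO, 15.6, 6.4 and 13.4 CPM in TRβKO and 8.83, 10.3 and 16.6 CPM in WT, with TRαKO below both.

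A few regions showed no rise with T3 in TRαKO. The region chr5:131378121-131378567, with no gene within 10 kb, had 1.5, 0.282 and 0.332 CPM in TRαKO with T3, 9.01, 10.4 and 18.1 CPM in TRβKO and 4.82, 6.72 and 7.0 CPM in WT. Its untreated TRαKO libraries held 0.772, 0.754 and 1.07 CPM, so the log2 T3 effect was -0.20 ± 0.58 in TRαKO against 3.14 ± 0.44 in TRβKO and 4.27 ± 0.52 in WT. The lowest fitted T3 effect in TRαKO, -1.17 ± 0.69, belonged to chr10:7914170-7914523, also without a near gene and singled out after its values were seen. It had 0.374, 0 and 1.33 CPM in TRαKO, 2.08, 3.05 and 3.27 CPM in TRβKO and 7.63, 3.56 and 5.69 CPM in WT with T3. Neither fall in TRαKO was called at an adjusted p under 0.05 by edgeR. The rule had used the T3-treated libraries, so this is a description only.

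Some regions outside the naming rule were singled out after their values were seen, for their roles in the gut. The meprin metalloprotease genes of the brush border, mep1a and mep1b, each had one. At mep1a, chr5:146905929-146906345 had 4.11, 2.4 and 3.48 CPM in TRαKO with T3, 6.93, 8.84 and 11.2 CPM in TRβKO and 8.83, 4.74 and 7.44 CPM in WT. At mep1b, chr6:111890900-111891351 had 2.49, 3.95 and 4.15 CPM in TRαKO, 10.7, 11.6 and 7.98 CPM in TRβKO and 10.0, 9.09 and 6.12 CPM in WT. TRαKO lay below the other libraries at both. The bile acid transporter gene slc10a2 showed a smaller difference, with 3.62, 2.68 and 3.65 CPM in TRαKO, 2.08, 7.32 and 6.53 CPM in TRβKO and 5.22, 3.16 and 6.56 CPM in WT at chr2:119460397-119460819, and its groups overlapped.

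Lipin 1, an enzyme of triglyceride synthesis, had 2 of these regions in its gene lpin1. At chr5:139125439-139125942 they held 4.36, 3.81 and 3.15 CPM in TRαKO with T3, 11.8, 11.6 and 6.89 CPM in TRβKO and 12, 10.3 and 10.1 CPM in WT. At chr5:139118868-139119343 they held 1.87, 2.26 and 2.82 CPM in TRαKO, 11.1, 10.4 and 13.8 CPM in TRβKO and 3.61, 3.16 and 1.75 CPM in WT. The first was low in TRαKO alone, and at the second TRαKO and WT overlapped below TRβKO. At g6pc.1, a glucose-6-phosphatase gene, chr10:21470975-21471519 had 4.36, 5.08 and 4.98 CPM in TRαKO, 4.16, 6.4 and 6.89 CPM in TRβKO and 10.8, 9.49 and 11.4 CPM in WT, where both knockouts were below WT. At cyp26b1, whose enzyme degrades retinoic acid, chr1:14758123-14758555 had 1.12, 1.69 and 2.66 CPM in TRαKO, 2.77, 7.01 and 5.81 CPM in TRβKO and 11.6, 3.95 and 13.1 CPM in WT, and TRαKO was below both.

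Without T3, receptor peaks were rare in these regions. No untreated library had a peak in 250 of the 265. A reproducible untreated peak was present at 1 of them in TRαKO, 2 in TRβKO and 6 in WT, which is 0.377%, 0.755% and 2.26%. In the 320 regions with T3 peaks in all genotypes the numbers were 51, 22 and 17. Over all 9867 regions reproducible untreated peaks were present at 290 in TRαKO, 331 in TRβKO and 4917 in WT, which is 2.94%, 3.35% and 49.8%. Such peaks were thus few in both knockouts over all regions too, and the untreated WT libraries were the deepest.

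The untreated libraries were not used to choose the regions, so the genotypes could be compared there. At an adjusted p under 0.05 by edgeR, 12 of the 265 were higher in untreated TRαKO than in untreated WT, where 1.65% of all tested regions were, and 2 were lower, where 1.1% were. In untreated TRβKO 15 were higher than in WT, where 2.07% were, and 2 were lower, where 1.88% were. These comparisons share the WT libraries. Between the untreated knockouts none was higher and 1 was lower in TRαKO than in TRβKO, where 0.214% and 0.407% were. At an unadjusted p under 0.05 by edgeR the numbers were 70 of the 265 for TRαKO against WT, 63 for TRβKO against WT and 23 for TRαKO against TRβKO, and over all 9342 tested regions they were 1527, 1907 and 956. The adjusted counts depended on the method. For TRαKO against WT, 34 were higher and 2 lower with TMM scaling, where 3.60% and 0.460% of all tested regions were, and 50 were higher and 2 lower with DESeq2, where 4.12% and 0.578% were. Without WT replicate 1 or 2, edgeR called 7 or 6 higher and 2 lower. For TRβKO against WT, 28 were higher and 2 lower with DESeq2, where 4.06% and 1.95% were, and 9 were higher and 2 lower with tags before the duplicate filter. Leaving out TRβKO replicate 1 or 2 or any WT library gave 6 to 9 higher and 1 or 2 lower in that comparison.

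The median log2 difference of the 265 was 0.44 for TRαKO and 0.43 for TRβKO against WT, where it was -0.28 and -0.18 over all tested regions. The 4766 tested regions without a reproducible untreated WT peak hold nearly all of the 265. Their median was 0.00 for TRαKO and 0.28 for TRβKO. Of them 136 were higher and 9 lower in TRαKO, and 163 were higher and 11 lower in TRβKO. Both backgrounds depend on the untreated WT libraries that enter the comparison. Of all 9867 counted regions, 4917 had a reproducible untreated WT peak, and the 4766 were chosen for lacking one. Neither the medians nor the called shares of these sets are thus a neutral reference for the 265. The regions with T3 peaks in all genotypes had medians of 0.76 and 0.75 for TRαKO and TRβKO, with 89 higher and 0 lower in TRαKO and 81 higher and 2 lower in TRβKO. The levels concerned were near 1 CPM, at group medians of 1.13 CPM in TRαKO, 1.15 CPM in TRβKO and 0.854 CPM in WT. The untreated libraries also differed in fragment length, at 295 to 296 bp in TRαKO, 297 bp in TRβKO and 255 to 283 bp in WT, and in duplicate tags, at 10.2 to 10.4% in TRαKO, 10.5 to 14.6% in TRβKO and 2.2 to 2.97% in WT. Their part in this difference, and that of depth, was not tested.

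The largest rises in untreated TRαKO among regions with a gene were at ccnj, phlpp2 and rasef. At ccnj, which encodes a cyclin, chr7:25963918-25964422 had 2.31, 2.8 and 1.87 CPM in untreated TRαKO, 0.366, 1.21 and 0.958 CPM in TRβKO and 0.804, 0.175 and 0.324 CPM in WT. TRαKO lay above all other untreated libraries, and its log2 difference from WT was 2.43 ± 0.45 (edgeR adjusted p = 9.66e-05). At the phlpp2 region there were 2.19, 3.55 and 2.54 CPM in TRαKO, 3.29, 1.73 and 1.15 CPM in TRβKO and 0.293, 0.526 and 0.971 CPM in WT. Both knockouts stood above WT, by log2 2.22 ± 0.39 in TRαKO (edgeR adjusted p = 4.41e-05) and 1.79 ± 0.44 in TRβKO (adjusted p = 0.00820). At rasef, a Ras family GTPase gene, chr3:107566140-107566509 had 1.67, 1.51 and 2.8 CPM in TRαKO and 0.219, 0.701 and 0.647 CPM in WT, a log2 difference of 1.86 ± 0.45 (edgeR adjusted p = 0.00647). The rasef call was lost without TRαKO replicate 3 or WT replicate 1, and the phlpp2 call in TRβKO without TRβKO replicate 1 or WT replicate 1.

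Regions without a near gene made up the rest of the 5 largest rises in TRαKO. At chr1:129885055-129885589 there were 1.93, 2.58 and 4.01 CPM in untreated TRαKO, 2.74, 1.73 and 1.72 CPM in TRβKO and 0.804, 0.701 and 0.405 CPM in WT, a log2 difference of 2.10 ± 0.37 between TRαKO and WT (edgeR adjusted p = 4.33e-05). At chr6:108730962-108731456 there were 1.03, 2.37 and 1.47 CPM in TRαKO and 0.293, 0.584 and 0.486 CPM in WT, a difference of 1.80 ± 0.47 (edgeR adjusted p = 0.0142). No library of TRαKO overlapped WT at either. The second was not called without TRαKO replicate 2 or WT replicate 1. The apoo, abcc12 and gtdc1 regions described above with T3 were also called higher in untreated TRαKO than in WT by edgeR. These calls were lost on leaving out any of 4 libraries at apoo, 5 at abcc12 and 3 at gtdc1.

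In untreated TRβKO the named rises included foxo3 and rbm47. At the foxo3 region there were 1.67, 0.754 and 1.74 CPM in TRαKO, 2.56, 3.11 and 2.11 CPM in TRβKO and 0.512, 0.643 and 0.809 CPM in WT, and TRβKO exceeded WT by log2 1.97 ± 0.43 (edgeR adjusted p = 0.00220). At rbm47, which encodes an RNA-binding protein, chr1:36464929-36465347 had 1.03, 1.4 and 0.935 CPM in TRαKO, 1.28, 0.863 and 2.49 CPM in TRβKO and 0.293, 0.409 and 0.486 CPM in WT, and TRβKO exceeded WT by 1.90 ± 0.53 (edgeR adjusted p = 0.0256). No TRβKO library overlapped WT at either gene. The rbm47 call was lost without TRβKO replicate 3, WT replicate 1 or WT replicate 2. The regions chr5:131378121-131378567 and chr6:21096300-21096710, without a near gene, differed by 2.14 ± 0.59 and 2.03 ± 0.60 (edgeR adjusted p = 0.0206 and 0.0345), and each call was lost on leaving out any of 4 libraries. At the lgr4 region chr4:21092281-21092855 there were 1.67, 2.58 and 1.74 CPM in TRαKO, 1.46, 3.8 and 2.3 CPM in TRβKO and 0.804, 0.935 and 0.89 CPM in WT, and TRβKO exceeded WT by 1.51 ± 0.42 (edgeR adjusted p = 0.0225), a call lost without TRβKO replicate 2 or any WT library. These lgr4 and foxo3 calls were the only ones in the untreated comparisons among the regions of the gene lists.

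**Figure D5:**
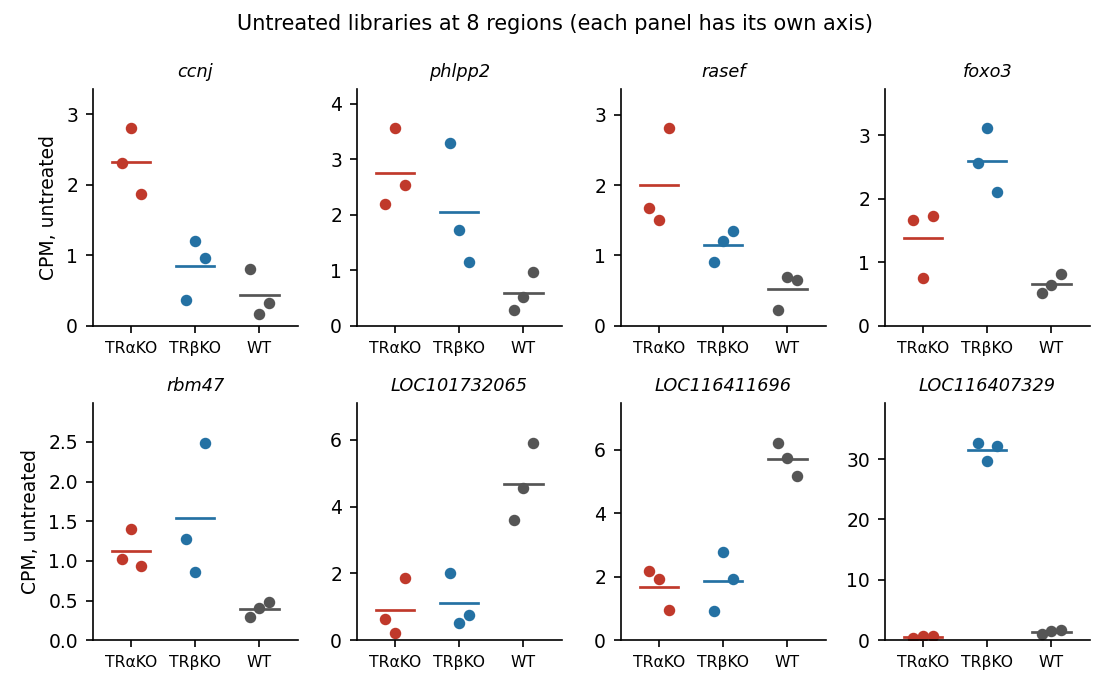
Reads per M tags (y axis, own scale in each panel) in the untreated libraries of TRαKO, TRβKO and WT (x axis) at 8 regions not reproducible in TRαKO with T3 and named from the untreated comparisons. Points are libraries and lines are means of 3. One or both knockouts are above WT at ccnj, phlpp2, rasef, foxo3 and rbm47, both are below WT at LOC101732065 and LOC116411696, and TRβKO stands at 29.7 to 32.7 CPM at LOC116407329.

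The region called between the untreated knockouts and the 2 called lower in both untreated knockouts than in WT lay at LOC genes, which the annotation leaves without a name. At chr8:118054872-118055340, within 10 kb of LOC116407329, there were 1.12, 0.282 and 0.996 CPM in TRαKO, 23.9, 23.8 and 26.9 CPM in TRβKO and 0, 5.53 and 3.5 CPM in WT with T3. The untreated libraries had 0.386, 0.754 and 0.668 CPM in TRαKO, 32.7, 29.7 and 32.2 CPM in TRβKO and 0.951, 1.58 and 1.7 CPM in WT. TRβKO exceeded untreated WT by log2 4.46 ± 0.27 (edgeR adjusted p = 2.74e-24), and untreated TRαKO was lower than TRβKO by -5.65 ± 0.33 (adjusted p = 3.58e-25). It was not called higher with T3 in TRβKO, where the log2 T3 effect was -0.34 ± 0.23. Of the 20 tested regions within 500 kb of it, itself included, 7 were higher and 2 lower in untreated TRβKO than in untreated WT. In untreated TRαKO 0 were higher and 7 lower than in untreated TRβKO, and 1 was higher and 2 lower than in untreated WT. Over all tested regions 2.07% were higher and 1.88% lower in TRβKO than in WT. For TRαKO these shares were 0.214% and 0.407% against TRβKO, and 1.65% and 1.1% against WT.

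The other two were higher in WT. At chr6:32856118-32856606, in LOC116411696, there were 1.62, 1.41 and 1.83 CPM in TRαKO, 1.39, 3.05 and 1.45 CPM in TRβKO and 9.23, 8.3 and 8.31 CPM in WT with T3. The untreated libraries had 2.19, 1.94 and 0.935 CPM in TRαKO, 0.914, 2.76 and 1.92 CPM in TRβKO and 6.22, 5.73 and 5.18 CPM in WT. Both knockouts were lower than WT, by log2 -1.74 ± 0.36 in TRαKO (edgeR adjusted p = 9.01e-04) and -1.60 ± 0.38 in TRβKO (adjusted p = 0.00614). The TRβKO call was lost without TRβKO replicate 1, at an adjusted p of 0.0840 by edgeR. A region of the same gene with T3 peaks in all genotypes averaged 5.75 ± 0.623 CPM in untreated TRαKO, 8.46 ± 1.85 CPM in untreated TRβKO and 7.1 ± 0.373 CPM in untreated WT (SD, n = 3 each).

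At chr5:153779533-153780275, within 10 kb of LOC101732065, there were 5.49, 4.52 and 5.14 CPM in TRαKO, 3.46, 5.49 and 1.81 CPM in TRβKO and 14.1, 13.8 and 10.5 CPM in WT with T3. The untreated libraries had 0.643, 0.215 and 1.87 CPM in TRαKO, 2.01, 0.518 and 0.766 CPM in TRβKO and 3.58, 4.56 and 5.91 CPM in WT. The knockouts were lower by log2 -2.40 ± 0.41 in TRαKO (edgeR adjusted p = 3.22e-05) and -2.08 ± 0.43 in TRβKO (adjusted p = 0.00101). The ranges of the knockouts and WT did not overlap with or without T3. Of the 9 tested regions within 500 kb of it, itself included, 3 were lower in untreated TRαKO and 4 in untreated TRβKO than in untreated WT, and none was higher. Of the 9 around the LOC116411696 region, itself included, 1 was higher and 1 lower in untreated TRαKO than in WT, and in untreated TRβKO none was higher and 1 was lower. The cause of these genotype differences was not tested.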

How the data were processed

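TR ChIP-seq was analysed in 18 libraries, grouped by genotype and T3 treatment per the labels. Per the submitters' processing notes, the authors used Bowtie2 2.3.4.1, MACS2 2.1.1.20160309 and DiffBind. The file headers instead give MACS 2.2.7.1, run on each library alone without a control, at a q-value of 0.05, for a genome of 2.7e+09 bases, keeping 1 tag at a position. The deposited table holds raw read counts per region. The deposited peak lists give pileup signal at the summit, −log10 p and q values, and fold enrichment over the local background, per the file headers. The genome build is not given in the sources used here. With UCB_Xtro_10.0 gene positions, 11.4% of 9817 regions lay within 1 kb of a gene end, against 7.68% and 7.45% after shifts of 1 Mb.

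A peak overlapped a region when they shared at least 1 base. Counts were fitted with edgeR 4.0.16 in R 4.3.3 as 6 group means over all 18 libraries (glmQLFit, robust, and glmQLFTest). Library size was the tags after the MACS duplicate filter. After filterByExpr 9342 regions remained. Tests were two-sided at an adjusted p of 0.05, and each SE is the absolute log2 fold change divided by the root of its F statistic. Adjusted p-values are from edgeR. On simulated data the fit recovered most of the larger rises tried, fewer of the falls and hardly any of the smaller changes. Alternatives were TMM scaling, tags before the filter, DESeq2 1.42.0, no count filter, other peak and overlap limits, a replicate block and leaving out each library. Tables and figures were made with Python 3.11.15, pandas 2.3.3, numpy 2.4.6 and matplotlib 3.10.9. Chi-square over degrees of freedom between replicates was 1.86 to 2.28, above counting error, so no 2 replicates of a group were copies, and p-values measure the spread between these libraries.

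The regions, gene lists and naming rule were chosen with earlier results of these data known. The rule names the 12 highest regions with a symbol found in both TRβKO and WT, the 5 highest found in WT alone and in TRβKO alone, up to 5 rises and 5 falls per untreated comparison, up to 4 regions per gene list, and, of the first 2 kinds, the 3 highest and 3 lowest in TRαKO without a TRαKO peak. Regions took the name of the gene they overlap, or failing that of the nearest gene within 10 kb. Some regions that the rule names are not reported here.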

Additional observations from a re-analysis of the deposited data

How the results depend on the processing

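At these levels a group of 3 libraries held a median of 59 to 74 reads per region with T3, which limits what a single region can show. Without T3 the number of these regions called was 14 for TRαKO against WT as reported, 36 with TMM scaling and 52 with DESeq2. For TRβKO against WT it was 17, and 11 with tags before the duplicate filter as library size and 30 with DESeq2. For TRαKO against TRβKO it was 1, and 2 with DESeq2. The T3 effect in TRαKO was called at 126, and at 40 with TMM and 51 with DESeq2. TRβKO against WT with T3 was called at 29, and at 44 when only those libraries were fitted. The cause of these shifts was not tested. Counts in this section are given without the share over all tested regions under the same setting, so they compare settings only.

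Leaving out 1 library at a time gave 8 to 17 calls for TRαKO against WT and 8 to 17 for TRβKO against WT without T3, and 1 for TRαKO against TRβKO. It gave 81 to 131 for the T3 effect in TRαKO, the lowest without untreated TRαKO replicate 3, and 239 to 247 in TRβKO and 249 to 257 in WT. With T3 it gave 137 to 187 for TRαKO against WT, 147 to 186 for TRαKO against TRβKO and 17 to 30 for TRβKO against WT. The lowest counts without T3 came without WT replicate 2 for TRαKO, and without TRβKO replicate 1 or 2 or WT replicate 1 or 3 for TRβKO. Those for TRβKO against WT with T3 came without TRβKO replicate 2 or 3. The number of regions chosen ranged from 205 to 376 without 1 T3-treated library, and those with reproducible untreated peaks from 6 to 7.

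The rule set the number of regions, with 156 if no TRαKO library may have a peak, 89 if a peak is needed in all 3 libraries of TRβKO or WT, 226 with peaks of −log10 q of at least 5 and 266 if a peak must cover at least 50% of the region. Of the 156, which are fewer regions, the calls were 7 for TRαKO and 8 for TRβKO against WT without T3. They were 52, 142 and 148 for the T3 effect in TRαKO, TRβKO and WT, and 111, 115 and 17 with T3 for TRαKO against WT, TRαKO against TRβKO and TRβKO against WT. With peaks of −log10 q of at least 5, reproducible untreated peaks stood at 4 of the regions rather than 7. TRβKO against WT with T3 had 11 higher and 18 lower as reported, 17 and 7 with TMM and 29 and 12 with DESeq2, so which direction held more calls depended on the method.

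Same-numbered libraries were not treated as pairs, and their deviations from group means correlated at -0.0049 to 0.0374 over regions. With few reads per region, counting noise keeps such correlations low, so they cannot exclude pairing. A replicate block in the model gave 14, 14 and 1 calls for TRαKO against WT, TRβKO against WT and TRαKO against TRβKO without T3. It gave 125, 246 and 255 for the T3 effect in TRαKO, TRβKO and WT, and 173, 179 and 25 with T3 for TRαKO against WT, TRαKO against TRβKO and TRβKO against WT.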
